A study of Mus musculus with 28 samples.

Results

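The transcripts of the circadian clock were measured in hippocampal microglia of mice with and without gut bacteria. The 10 genes were chosen by name: the activators Arntl and Clock, the repressors Per1, Per2, Per3, Cry1 and Cry2, the nuclear receptors Nr1d1 and Nr1d2, and the output gene Dbp. All 10 were found among the 48587 genes of the count table, and all 10 passed the filter on low counts that left 15298 genes for testing. The data were 28 RNA-seq libraries, each made from the sorted CD11b+CD45lo hippocampal microglia of 1 mouse on a C57BL/6J background at 16 weeks of age. WT mice numbered 5 under SPF, 4 under GF and 5 under ABX conditions, and 5xFAD mice numbered 3, 5 and 6. SPF mice were specific pathogen free and colonized, GF mice were germ-free, and ABX mice were SPF mice given vancomycin, cefoxitin, gentamicin and metronidazole in the drinking water for 8 weeks. The 5xFAD mice, described as male, are a heterozygous model of Alzheimer's disease that carries mutant human transgenes, among them APP with the Swedish, Florida and London mutations, driven in neurons by the Thy-1 promoter, and WT mice were their non-transgenic littermates. GF mice came from a facility in Bern and the others were kept in Freiburg, so GF housing and facility cannot be told apart. A light-dark cycle is stated for the Freiburg mice, and the hour at which the tissue was taken is not given in the sources used here.

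The clock is a feedback loop of transcription that runs in nearly every cell, microglia included. The proteins of Arntl (BMAL1) and Clock bind E-box sequences and activate the Per and Cry genes, Nr1d1, Nr1d2 and Dbp, and PER and CRY proteins return to the nucleus and repress the activators. The proteins of Nr1d1 and Nr1d2 (REV-ERBα and REV-ERBβ) repress Arntl at sites that the ROR receptors also bind, so that Arntl transcripts are usually high at the hours when Dbp and Nr1d1 transcripts are low, and REV-ERBα is also known to restrain inflammatory genes in macrophages and microglia.

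The sites through which the loop acts are short, and some of them lie directly upstream of the measured genes. Mouse promoter windows of 250 bases upstream to 50 bases downstream of each start (RefSeq, GRCm38.p6) were searched on both strands for the E-box CACGTG, the E-prime box CACGTT, the D-box TTATGTAA that DBP binds and the receptor core AGGTCA of the REV-ERB and ROR families, and for the cyclic AMP element TGACGTCA. These motifs can share end letters, but no matches overlapped in the windows of the clock genes. Windows were found for 9 of the 10 genes, 13 in all since some have several starts, and Per2 was without an entry. The 250 upstream bases of Cry1, Cry2 and Nr1d1, which differed between groups and held an E-box or E-prime box, are shown first, and those of Per3, the one gene searched that held D-box letters, follow for contrast. The motifs are in capitals, and AACGTG is the reverse complement of CACGTT:
Cry1 (chr10:85185055-85185304, minus strand): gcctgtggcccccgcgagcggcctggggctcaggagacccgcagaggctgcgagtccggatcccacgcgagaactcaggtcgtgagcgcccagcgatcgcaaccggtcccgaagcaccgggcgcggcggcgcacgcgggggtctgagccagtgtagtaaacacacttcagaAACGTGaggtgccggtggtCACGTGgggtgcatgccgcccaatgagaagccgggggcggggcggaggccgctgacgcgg
Cry2 (chr2:92434070-92434319, minus strand): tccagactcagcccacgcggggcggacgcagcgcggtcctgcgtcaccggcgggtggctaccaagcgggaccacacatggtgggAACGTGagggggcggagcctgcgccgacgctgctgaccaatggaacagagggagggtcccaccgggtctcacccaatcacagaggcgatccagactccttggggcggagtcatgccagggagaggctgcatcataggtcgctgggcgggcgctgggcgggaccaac
Nr1d1 (chr11:98775378-98775627, minus strand): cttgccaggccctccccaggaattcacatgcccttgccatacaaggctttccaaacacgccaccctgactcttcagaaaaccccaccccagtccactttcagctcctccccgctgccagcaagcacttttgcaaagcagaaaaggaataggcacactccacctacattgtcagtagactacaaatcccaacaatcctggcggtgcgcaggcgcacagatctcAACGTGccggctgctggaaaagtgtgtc
Per3 (chr4:151044666-151044915, minus strand): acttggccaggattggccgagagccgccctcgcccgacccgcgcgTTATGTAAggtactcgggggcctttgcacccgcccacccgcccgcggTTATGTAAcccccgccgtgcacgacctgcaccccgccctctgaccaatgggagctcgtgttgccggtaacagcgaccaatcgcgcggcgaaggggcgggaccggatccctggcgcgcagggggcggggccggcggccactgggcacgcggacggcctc

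Counted from the start site, the Cry1 window held an E-box at -60 and an E-prime box at -79, the Cry2 window an E-prime box at -166, and the Nr1d1 window an E-prime box at -28. The Per3 window held the D-box at -205 and at -158. Of the genes not shown, Per1 held an E-box at -166 and a receptor core at -137 of its start 1, Nr1d2 a receptor core at -77, Clock at -119 of its start 3 and Arntl at 32 of its start 2. The Dbp window held none of these letters, and no window held the cyclic AMP element. Among all 32851 mouse promoter windows, 7.15% held the E-box, 4.68% the E-prime box, 0.938% the D-box, 16.3% the receptor core and 1.79% the cyclic AMP element. A match describes the letters of the window and not a site in use.

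Reads on genes numbered from 14441610 to 29977395 per library, and no library repeated another (chi-square divided by its degrees of freedom at least 6.92 between mice of a group). Of the markers of microglia, Tmem119 was at 2782 to 5915 CPM (counts scaled to a common library total) and P2ry12 at 4137 to 12079 CPM, and Cx3cr1, Csf1r, Sall1, Siglech and Aif1 were likewise above 0 in all libraries. The 6 neutrophil markers summed to between 61.1 and 263 CPM in the SPF 5xFAD mice and to 143.5 CPM in mouse FAD_ABX_1151, and to at most 0.294 CPM in every other library, although the sort excluded cells positive for Ly6G and Ly6C, surface markers of neutrophils and monocytes. The 6 markers of border-associated macrophages summed to between 32.8 and 242 CPM in ABX 5xFAD mice and to between 3.74 and 5.90 CPM in ABX WT mice. They summed to 3.48 to 8.09 CPM in SPF WT, 10.7 to 41.9 CPM in GF WT and 15.3 to 28.3 CPM in SPF 5xFAD mice. Mouse FAD_ABX_1482 stood apart in the clock genes themselves. Its library had no read of Per2 and 1 read of Nr1d1, the lowest Nr1d2, Per3 and Dbp values of all 28, and the fewest genes with a read (16816). The labels of mouse FAD_GF_201 disagree, 5xFAD in the title and genotype but WT in the description, and it was kept as 5xFAD. Without it, the 5 calls of the 10 clock genes in comparisons with GF 5xFAD mice were kept (edgeR adjusted p between 0.00631 and 0.0418), as were the calls of further clock genes named for these comparisons (2.98e-09 to 0.0379). The numbers in the library descriptions follow 3 styles, one shared by SPF WT and ABX WT mice, one by SPF 5xFAD mice and mouse FAD_ABX_1151, and one by every GF mouse and 5 of the ABX 5xFAD mice. A comparison within 1 style is possible between SPF and ABX WT mice, between GF 5xFAD and GF WT mice, and between GF and ABX 5xFAD mice without mouse FAD_ABX_1151. In the other comparisons of 2 groups the style follows the group in all mice or in all but 1.

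All 10 clock genes were expressed in microglia at low to moderate levels. Per kilobase of exon, averaged over the 28 libraries, Nr1d2 was highest at 8.40 ± 2.00 CPM per kb (SD, n = 28) and Cry1 came next at 5.79 ± 1.66. Clock followed at 3.25 ± 0.808, Cry2 at 2.87 ± 0.834, Arntl at 2.83 ± 0.842, Dbp at 2.43 ± 0.816, Per3 at 2.24 ± 0.429 and Per1 at 2.08 ± 1.27. Nr1d1 (1.31 ± 1.02 CPM per kb) and Per2 (1.15 ± 0.503 CPM per kb) were lowest. Nr1d2 exceeded Cry1 in 26 of 28 libraries and Cry1 exceeded Clock in 27, whereas Cry2 exceeded Arntl in 14 and Nr1d1 exceeded Per2 in 12, so the middle and the end of the order were not separated. The order was the same when library totals replaced the scaled library sizes. All further levels are CPM without division by length and are compared only within a gene.

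**Figure D1:**
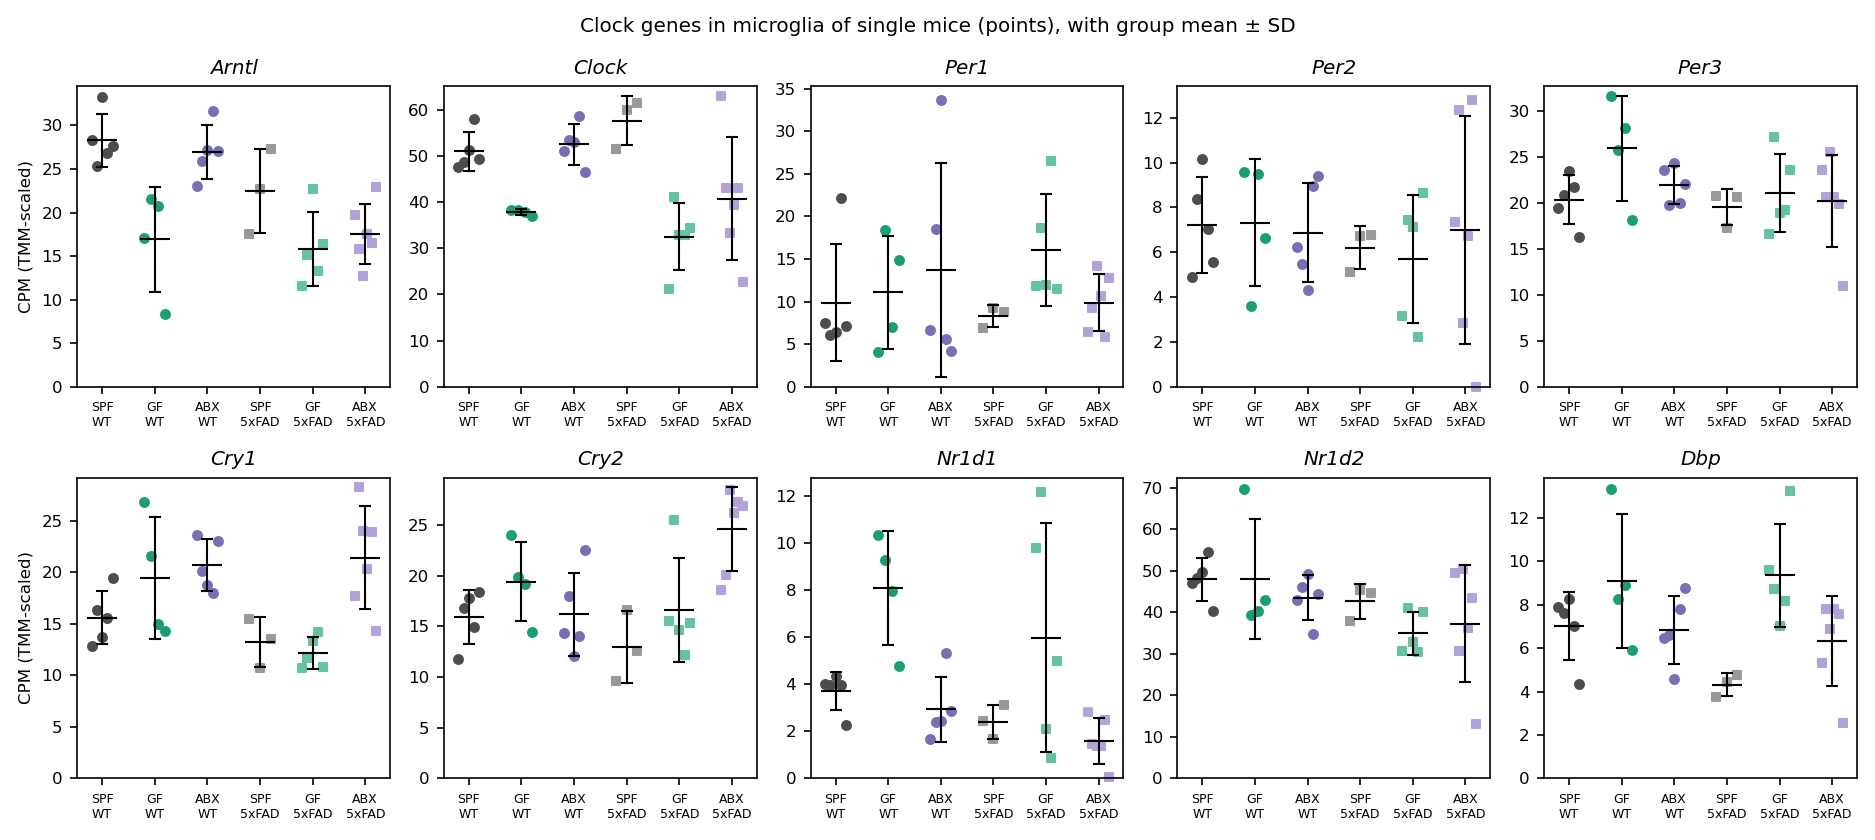
CPM of the 10 clock genes in each library, scaled by TMM, on linear axes from 0, with the group mean and SD. Points are single mice, circles WT and squares 5xFAD. Clock of GF 5xFAD mice lies at 21.1 to 41.1 CPM, under all SPF 5xFAD mice (51.5 to 61.4 CPM), and 1 ABX 5xFAD mouse has 0 CPM of Per2.

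The 6 groups differed in 6 of the 10 clock genes, namely Arntl, Clock, Cry1, Cry2, Nr1d1 and Dbp (edgeR quasi-likelihood F test, adjusted p between 0.00187 and 0.0471), against 33.2% of all genes tested. Per1, Per2, Per3 and Nr1d2 did not pass. Between single groups few members passed. GF and SPF 5xFAD mice differed in Clock and Dbp, GF and ABX 5xFAD mice in Cry1 and Nr1d1, 5xFAD and WT mice in Cry1 under GF conditions, and 5xFAD and WT mice in Arntl and Cry2 under ABX.

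In single comparisons the members were called about as often as genes in general. In 5xFAD against WT mice, 0 of 10 members passed under SPF conditions (background 4.57% of all genes), 1 under GF conditions (15.6%) and 2 under ABX (14.4%). In GF against SPF mice, 0 members passed in WT (1.62% of all genes) and 2 in 5xFAD mice (12.8%). In GF against ABX mice, 0 members passed in WT (6.88% of all genes) and 2 in 5xFAD mice (10.6%). Antibiotics alone gave no call at this threshold in the edgeR fit of all 28 mice. For ABX against SPF mice 0 members and 0% of all genes passed in WT and likewise in 5xFAD mice. At an unadjusted p under 0.05 were 687 and 1085 genes, of which 1 and 3 were members. Refits with edgeR called 1 gene in WT without mouse WT_SPF_936. In 5xFAD mice they called 59 genes without mouse FAD_ABX_1151 and 36 without mice FAD_ABX_1151 and FAD_ABX_1482. DESeq2 called 2 and 8 genes and voomWithQualityWeights, the method of the study, 0 and 134. In 5xFAD mice the latter called 3 members, Cry1 (0.86, adjusted p = 0.0169) and Cry2 (0.81, adjusted p = 0.0369) higher and Clock (-0.56, adjusted p = 0.0341) lower under ABX than under SPF conditions. In the edgeR fit of all 28 mice, no member passed the test of a difference between genotype effects. The share of all genes was 0% for GF against SPF and for ABX against SPF conditions and 1.76% for GF against ABX conditions. The first 2 of these tests had 1304 and 1032 genes at an unadjusted p under 0.05, and DESeq2 called 25 and 1 genes.

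Most members had lower estimates in 5xFAD than in WT mice, with 1 of 10 above 0 under SPF, 2 under GF and 3 under ABX conditions, few of them past the threshold. Their median log2 fold change in 5xFAD against WT mice was -0.24 under SPF, -0.26 under GF and -0.17 under ABX conditions, where the median of all genes was between -0.03 and -0.01. In GF against SPF mice it was 0.22 in WT and -0.00 in 5xFAD mice, and in GF against ABX mice 0.12 in WT and -0.12 in 5xFAD mice. In ABX against SPF mice it was -0.00 in WT and 0.11 in 5xFAD mice, with all genes between -0.01 and 0.02 in these 6 comparisons. The comparisons of GF and of ABX with SPF mice share their SPF mice, and those of GF with SPF and with ABX mice share their GF mice.

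**Figure D2:**
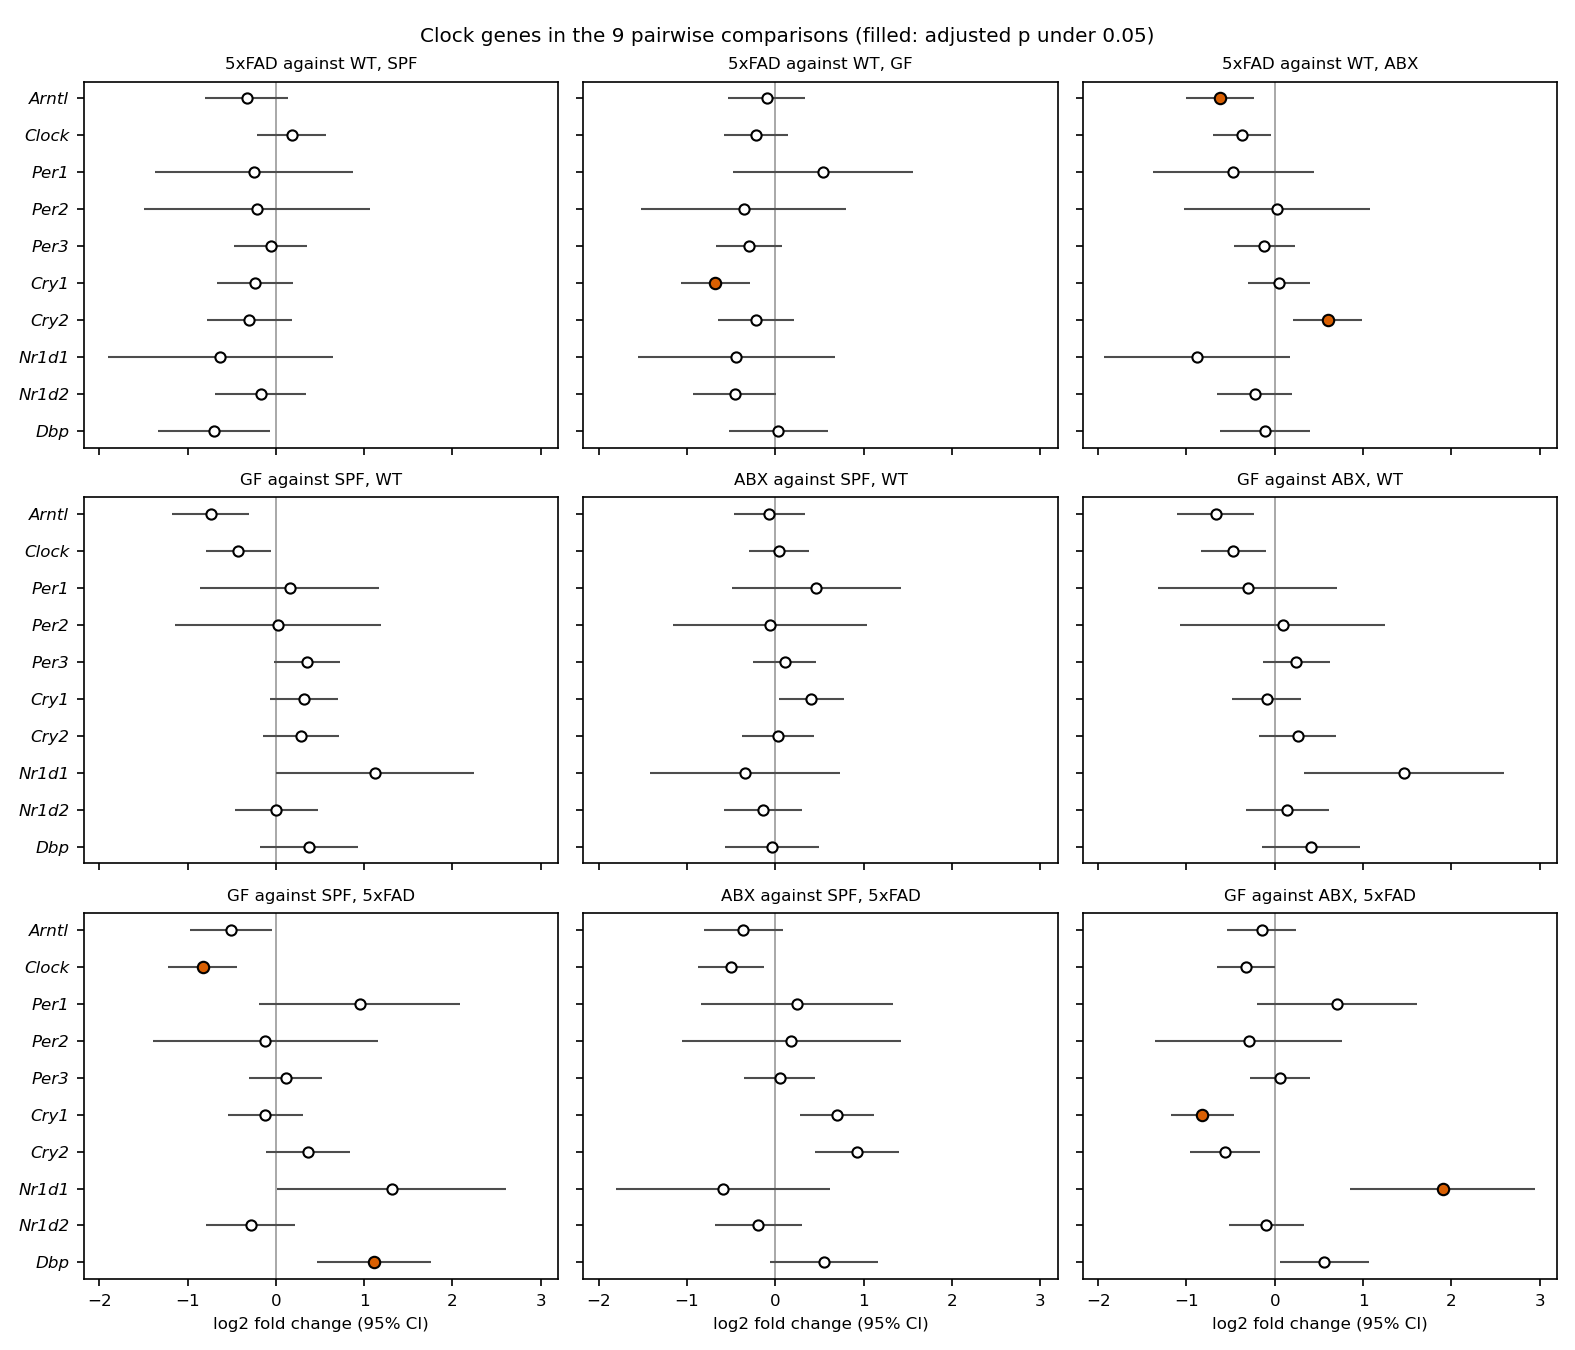
Log2 fold changes of the 10 clock genes in the 9 pairwise comparisons, with 95% confidence intervals from the edgeR fit. Filled points passed an adjusted p of 0.05; they are 7 of 90, and no filled point lies in 5xFAD against WT mice under SPF conditions or in the 3 comparisons within WT mice.

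Arntl and Clock, the activating pair of the loop, had their lowest group means in GF mice within each genotype. Arntl (GRCm38 chr7:113207465-113314126, plus strand) encodes BMAL1, the one partner that the loop cannot replace. The transcript measured 25.3, 26.8, 27.6, 28.3 and 33.3 CPM in the 5 SPF WT mice, 8.37, 17.1, 20.8 and 21.5 CPM in the 4 GF WT mice, and 23.1, 25.9, 27.04, 27.2 and 31.7 CPM in the 5 ABX WT mice. All GF WT mice thus lay under every other WT mouse, with mouse WT_GF_231 far under its own group. Arntl was at 17.6, 22.7 and 27.25 CPM in the 3 SPF 5xFAD mice, at 11.5, 13.3, 15.1, 16.4 and 22.7 CPM in the 5 GF 5xFAD mice, and between 12.7 and 22.9 CPM with a median of 17.0 CPM in the 6 ABX 5xFAD mice. Every ABX 5xFAD mouse lay under every ABX WT mouse, and the 5xFAD groups overlapped each other.

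Arntl fell in ABX 5xFAD against ABX WT mice, from 26.98 ± 3.11 (SD, n = 5) to 17.5 ± 3.48 CPM (SD, n = 6), with a log2 fold change of -0.62 (SE 0.189, edgeR adjusted p = 0.0247). The call was lost without any of mice WT_ABX_911, WT_ABX_923, FAD_ABX_1452 or FAD_ABX_1453, with adjusted p between 0.0503 and 0.0628. The border-associated macrophage markers were higher in the same contrast, 6 of 6 past the threshold, as were 5 of the 5 neutrophil markers tested. Of all genes 14.4% were past it. Of the 9 immediate early genes tested, which cell isolation can induce, 3 were past the threshold in this contrast, all 3 higher, at a median log2 fold change of 0.79 with 9 of 9 above 0. In the same contrast 3 of 8 microglia markers were lower, 1 of 3 endothelial markers was higher and 1 lower, and 3 of 6 glucocorticoid targets were called, 1 higher and 2 lower. The part of these lists in this result and in that of Cry2 was not tested. Without mouse FAD_ABX_1151, the one ABX 5xFAD mouse with neutrophil transcripts above 0.294 CPM in sum, Arntl was at -0.66 (adjusted p = 0.0217) and Cry2 at 0.66 (adjusted p = 0.0181). Clock was then at -0.53 (adjusted p = 0.0105), against -0.37 (SE 0.161, adjusted p = 0.132) with all mice. For GF against SPF WT mice the log2 fold change of Arntl was -0.74 (SE 0.213, edgeR adjusted p = 0.0695) and for GF against ABX WT mice -0.67 (SE 0.213, adjusted p = 0.0530), neither past the threshold. Without mouse FAD_ABX_1482, which is in neither contrast but enters the shared spread, the adjusted p was 0.0480 and 0.0409. Over all alternatives it ranged from 0.00516, with voomWithQualityWeights, to 0.216 for GF against SPF and from 0.0125, again with voomWithQualityWeights, to 0.190 for GF against ABX.

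Clock (chr5:76209868-76304792, minus strand) encodes the partner of BMAL1, and its transcript was the least variable of the 10 within WT groups. It measured 47.5, 48.7, 49.4, 51.2 and 57.9 CPM in SPF WT mice, 37.0, 37.9, 38.2 and 38.3 CPM in GF WT mice, and 46.4, 51.0, 53.1, 53.5 and 58.7 CPM in ABX WT mice. GF WT mice again lay under every other WT mouse, although the log2 fold changes of -0.43 against SPF (SE 0.180, edgeR adjusted p = 0.214) and -0.47 against ABX (SE 0.180, adjusted p = 0.108) did not pass. Without mouse FAD_ABX_1482, which is in neither contrast, the adjusted p against ABX was 0.0466. Both fold changes depended on the processing. GC content offsets gave -0.22 against SPF (adjusted p = 0.587) and -0.20 against ABX (adjusted p = 0.604), and gene length offsets -0.26 and -0.35, whereas voomWithQualityWeights gave -0.43 (adjusted p = 0.0229) and -0.46 (adjusted p = 0.0226) and the fits of only the 2 groups compared -0.42 (adjusted p = 0.0144) and -0.48 (adjusted p = 0.0147). Clock was at 51.5, 60.0 and 61.4 CPM in SPF 5xFAD mice, at 21.1, 32.9, 33.0, 34.3 and 41.1 CPM in GF 5xFAD mice, and between 22.8 and 62.9 CPM with a median of 41.2 CPM in ABX 5xFAD mice. The GF and SPF ranges did not overlap, and the ABX mice spanned both, with mouse FAD_ABX_1151 highest and mouse FAD_ABX_1482 lowest. For GF against ABX 5xFAD mice the log2 fold change of Clock was -0.33 (SE 0.162, edgeR adjusted p = 0.205). It was -0.45 (adjusted p = 0.0285) without mouse FAD_ABX_1482.

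Clock fell in GF against SPF 5xFAD mice, from 57.6 ± 5.38 (SD, n = 3) to 32.5 ± 7.20 CPM (SD, n = 5), with a log2 fold change of -0.83 (SE 0.191, edgeR adjusted p = 0.00572). The call was kept without any single mouse. The Clock gene has 13727 summed exon bases, and genes long by this measure moved in the same direction in this contrast. The 977 genes of 10 kb or more had a median log2 fold change of -0.30, against 0.10 for the 4979 genes of 2 to 4 kb. With offsets for gene length, Clock was at -0.47 with an adjusted p of 0.0585, and with offsets for GC content at -0.55 with an adjusted p of 0.0386. The neutrophil markers were lower in the same contrast, 5 of the 5 tested past the threshold (12.8% of all genes). They were at 0 to 0.0495 CPM in GF 5xFAD mice. Their part in this result and in that of Dbp was not tested. In these sorted bulk samples, fewer cells with a transcript and less of it per cell cannot be told apart.

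The cryptochromes, which form the repressor complex with PER proteins, both had their highest group mean in ABX 5xFAD mice. Cry1 (chr10:85131702-85185054, minus strand) measured 12.9, 13.7, 15.6, 16.4 and 19.4 CPM in SPF WT mice, 14.3, 15.0, 21.6 and 26.8 CPM in GF WT mice, and 18.0, 18.8, 20.2, 23.0 and 23.6 CPM in ABX WT mice. Among 5xFAD mice it was at 10.7, 13.5 and 15.5 CPM under SPF, at 10.7, 10.8, 11.7, 13.4 and 14.2 CPM under GF, and between 14.3 and 28.3 CPM with a median of 22.1 CPM under ABX conditions. The 5 GF 5xFAD mice were tightly grouped and lay under all GF WT and all ABX 5xFAD mice.

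Cry1 fell in GF against ABX 5xFAD mice, from 21.4 ± 5.02 (SD, n = 6) to 12.2 ± 1.55 CPM (SD, n = 5), with a log2 fold change of -0.82 (SE 0.174, edgeR adjusted p = 0.00397). This was the one pairwise call among the 10 genes that was kept without any single mouse and under all alternatives, with adjusted p between 0.000206 and 0.0373. Without mouse FAD_ABX_1151, which leaves libraries of a single description style, it was at -0.88 (adjusted p = 0.00467). Some markers of other cells were past the threshold and lower in GF mice in this contrast, where 10.6% of all genes passed. They were 4 of 5 neutrophil, 1 of 6 border-associated macrophage, 2 of 5 astrocyte and 1 of 6 neuron markers. Of 8 microglia markers 3 were lower and 1 higher. The border-associated macrophage markers summed to 9.43 to 77.0 CPM in GF and 32.8 to 242 CPM in ABX 5xFAD mice. The part of these markers in this result and in that of Nr1d1 was not tested. Cry1 also fell in GF 5xFAD against GF WT mice, where the WT mean was 19.4 ± 5.93 CPM (SD, n = 4), with a change of -0.68 on the log2 scale (SE 0.190, edgeR adjusted p = 0.0133). Without mouse WT_GF_199, the highest of the WT mice, it was at -0.48 with an adjusted p of 0.112, and voomWithQualityWeights gave -0.57 with an adjusted p of 0.0565. In this contrast 15.6% of all genes were called, and 0 border-associated macrophage, neutrophil, neuron and oligodendrocyte markers. Of the astrocyte markers 2 of 5 were called (1 higher and 1 lower), and 1 of 3 endothelial and 4 of 8 microglia markers were lower. Of the immediate early genes 3 of 9 were higher. The part of these genes in the result was not tested. The difference of this genotype effect between GF and ABX mice was -0.73 (SE 0.256, adjusted p = 0.141), and 0.05 (SE 0.171) was the effect under ABX.

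Cry2 (chr2:92403646-92434043, minus strand) had its higher values in ABX 5xFAD mice. It measured 12.1, 14.1, 14.4, 18.0 and 22.5 CPM in ABX WT mice and between 18.6 and 28.5 CPM with a median of 26.5 CPM in ABX 5xFAD mice, where 4 of the 6 lay over every ABX WT mouse. Cry2 rose in this contrast from 16.2 ± 4.10 (SD, n = 5) to 24.6 ± 4.14 CPM (SD, n = 6), with a log2 fold change of 0.60 (SE 0.192, edgeR adjusted p = 0.0340). The call was lost without any of 7 of the 11 mice compared, with adjusted p between 0.0537 and 0.111, and with GC content offsets (0.0988), with library size alone (0.05825) and with voomWithQualityWeights (0.0579). The excluded mice were WT_ABX_909, WT_ABX_911, WT_ABX_923, FAD_ABX_1453, FAD_ABX_1455, FAD_ABX_1460 and FAD_ABX_1482. The 3 SPF 5xFAD mice, at 9.56, 12.6 and 16.6 CPM, lay under all ABX 5xFAD mice, with a log2 fold change of 0.93 for ABX against SPF (SE 0.232) and an unadjusted p of 0.000416, which did not pass over all genes (adjusted p = 0.425, with 0.0369 to 0.971 over the alternatives). Cry1 was likewise at 0.70 in this contrast (SE 0.207, adjusted p = 0.580, with 0.0169 to 0.971). The log2 fold change of Cry2 for GF against ABX 5xFAD mice was -0.56 (SE 0.192, adjusted p = 0.0571), with adjusted p between 0.0136 and 0.143 over the alternatives. SPF WT mice were at 11.7 to 18.4, GF WT mice at 14.5 to 23.98 and GF 5xFAD mice at 12.2 to 25.5 CPM, all overlapping. Counting by strand is not stated, and 295 exon bases of Cry2 (4.67%) overlap the antisense transcript D930015M05Rik, which had at most 0.301 CPM.

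The Per genes, of which Per1 and Per2 answer to light, stress hormones and cyclic AMP and Per3 is dispensable for the rhythm, passed no test. Per1 (chr11:69095217-69109960, plus strand) was the most variable of the 3 and ran from 4.07 to 33.7 CPM over all libraries. In ABX WT mice alone it measured 4.18, 5.59, 6.70, 18.6 and 33.7 CPM, and in SPF WT mice 4 values lay between 6.14 and 7.54 CPM and 1 at 22.2 CPM. All 5 GF 5xFAD mice (11.5 to 26.6 CPM) lay over the 3 SPF 5xFAD mice (6.90 to 9.30 CPM), at a log2 fold change of 0.95 with a 95% confidence interval of -0.19 to 2.09 (edgeR adjusted p = 0.289).

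Per2 (chr1:91415982-91459324, minus strand) lay between 0 and 12.8 CPM, with group means of 5.72 to 7.32 CPM. Its 9 pairwise log2 fold changes ran from -0.36 to 0.18 with standard errors of 0.514 to 0.6245, and its adjusted p over all groups was 0.991. The ABX 5xFAD group held both the highest and the lowest value, and without mouse FAD_ABX_1482, which had 0 reads, its mean was 8.40 ± 4.18 CPM (SD, n = 5). Per3 (chr4:151003652-151044665, minus strand) was steadier, between 11.0 and 31.7 CPM, with group means of 19.6 to 25.97 CPM and pairwise log2 fold changes of -0.30 to 0.35 (SE 0.167 to 0.202). Its interval for GF against SPF WT mice was -0.02 to 0.73, and 3 of the 4 GF WT mice lay over all SPF WT mice.

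Nr1d1 (chr11:98767932-98775333, minus strand), which encodes REV-ERBα, had its highest values in GF mice. It measured 2.29, 3.96, 3.99, 4.03 and 4.36 CPM in SPF WT mice, 4.76, 7.99, 9.30 and 10.4 CPM in GF WT mice, and 1.66, 2.38, 2.44, 2.87 and 5.32 CPM in ABX WT mice. Every GF WT mouse lay over every SPF WT mouse, with an estimate of 1.12 on the log2 scale (SE 0.547) that did not pass (edgeR adjusted p = 0.2998). Against ABX WT mice the estimate was 1.47 (SE 0.553, adjusted p = 0.104), with an adjusted p of 0.0497 without mouse FAD_ABX_1482. Nr1d1 was at 1.67, 2.44 and 3.12 CPM in SPF 5xFAD mice, at 0.881, 2.08, 4.98, 9.825 and 12.2 CPM in GF 5xFAD mice, and between 0.0651 and 2.82 CPM with a median of 1.43 CPM in ABX 5xFAD mice. GF 5xFAD mice were split, with 3 over all ABX 5xFAD mice and 2 within their range.

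Nr1d1 rose in GF against ABX 5xFAD mice, from 1.59 ± 0.972 (SD, n = 6) to 5.99 ± 4.89 CPM (SD, n = 5), with a log2 fold change of 1.90 (SE 0.513, edgeR adjusted p = 0.0174). The call was lost without mouse FAD_GF_181 (1.65, adjusted p = 0.0555) or mouse FAD_GF_182 (1.46, adjusted p = 0.0756), in a fit of the 2 groups alone (adjusted p = 0.143) and with voomWithQualityWeights (1.47, adjusted p = 0.150). Without mouse FAD_ABX_1151 it was 2.13 (adjusted p = 0.0203), and without mouse FAD_ABX_1482 it was 1.66 (adjusted p = 0.0139). Depth limits this gene, with 1 to 269 reads per library. Nr1d1 shares 263 exon bases (8.55%) with Thra, the thyroid hormone receptor gene on the other strand, which had 1.33 to 6.58 CPM and a log2 fold change of 0.12 (SE 0.250) in the same contrast.

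Nr1d2 (chr14:18204054-18239127, minus strand), which encodes REV-ERBβ, passed no test although it was the most abundant of the 10 transcripts per kilobase. Group means ran from 35.0 ± 5.14 CPM in GF 5xFAD mice (SD, n = 5) to 48.1 ± 14.5 CPM in GF WT mice (SD, n = 4), whose mouse WT_GF_199 stood at 69.7 CPM over 3 mice at 39.3, 40.3 and 43.0 CPM. Between GF 5xFAD and GF WT mice the log2 fold change was -0.46 (SE 0.229, edgeR adjusted p = 0.189). Without mouse FAD_ABX_1482, which is not in this contrast and had 13.1 CPM, the standard error was 0.160 and the adjusted p 0.0459. The paralogs thus differed in level and in spread, Nr1d1 varying by 78.1% of its mean over the 28 libraries and Nr1d2 by 23.8%.

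Dbp (chr7:45705088-45710203, plus strand), a transcription factor that carries the rhythm to output genes through D-boxes, was lowest in SPF 5xFAD mice. It measured 3.75, 4.43 and 4.78 CPM in these mice, 7.02, 8.19, 8.71, 9.61 and 13.2 CPM in GF 5xFAD mice, and between 2.54 and 7.79 CPM with a median of 7.23 CPM in ABX 5xFAD mice. All GF 5xFAD mice lay over all SPF 5xFAD mice, and 5 of the 6 ABX 5xFAD mice did too, the exception being mouse FAD_ABX_1482. WT mice were less separated, at 4.35 to 8.26 CPM under SPF, 5.92 to 13.3 CPM under GF and 4.58 to 8.76 CPM under ABX conditions.

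Dbp rose in GF against SPF 5xFAD mice, from 4.32 ± 0.527 (SD, n = 3) to 9.35 ± 2.36 CPM (SD, n = 5), with a log2 fold change of 1.11 (SE 0.313, edgeR adjusted p = 0.0194). The call was lost without any 1 of the 3 SPF 5xFAD mice, with adjusted p of 0.0709 to 0.0814, and with GC content offsets (0.89, adjusted p = 0.0850). For GF against SPF WT mice the log2 fold change was 0.37 (SE 0.273, adjusted p = 0.535), and the difference between the genotype effects was 0.74 (SE 0.411, adjusted p = 0.646), so that a change particular to 5xFAD mice was not shown. Of the exon bases of Dbp, 539 (18.0%) are shared with Sphk2 on the other strand, a more abundant gene at 30.4 to 64.6 CPM. Sphk2 was at a log2 fold change of 0.29 in this contrast (SE 0.152, adjusted p = 0.224).

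Arntl and Dbp lie on opposite sides of the loop, and they were set against each other within each library. The log2 ratio of Dbp to Arntl was -2.04 ± 0.37 in SPF WT (SD, n = 5), -0.87 ± 0.51 in GF WT (SD, n = 4) and -2.00 ± 0.35 in ABX WT mice (SD, n = 5). In 5xFAD mice it was -2.37 ± 0.14 under SPF (SD, n = 3), -0.75 ± 0.57 under GF (SD, n = 5) and -1.55 ± 0.87 under ABX conditions (SD, n = 6). GF and SPF mice did not overlap in either genotype, with -1.38 to -0.36 against -2.67 to -1.73 in WT and -1.69 to -0.26 against -2.51 to -2.23 in 5xFAD mice. ABX 5xFAD mice fell apart, with 4 mice between -1.17 and -0.89, mouse FAD_ABX_1151 at -1.90 and mouse FAD_ABX_1482 at -3.17. Mouse FAD_ABX_1151 has the description style of the SPF 5xFAD mice, and the other ABX 5xFAD mice have that of the GF mice. Housing and style cannot be told apart between GF and SPF mice, and the part of style in the ratio was not tested. The ratio was chosen after the values were seen and is given as a description.

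**Figure D3:**
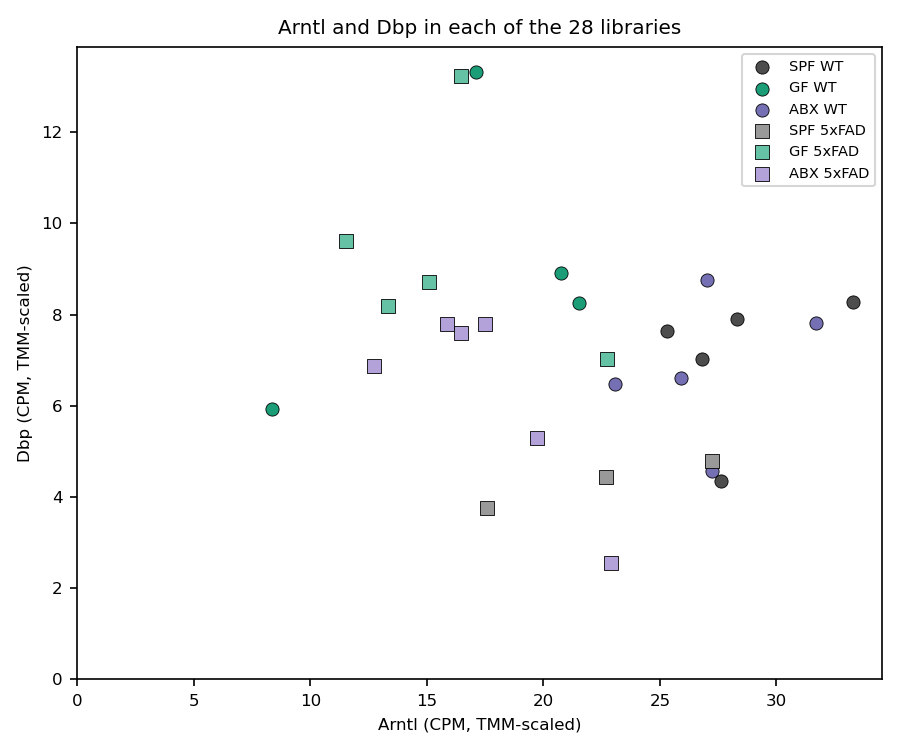
Dbp against Arntl, both in TMM-scaled CPM on linear axes from 0, in each of the 28 libraries. GF mice of both genotypes lie to the left and mostly high (Arntl 8.37 to 22.7 CPM, Dbp 5.92 to 13.3 CPM), and SPF mice to the right and low (Arntl 17.6 to 33.3 CPM, Dbp 3.75 to 8.26 CPM).

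Within groups, several clock genes varied together, and most of the higher correlations were lower without a single library. After each group's mean was subtracted from log2 CPM, Pearson's r over the 28 libraries was 0.80 for Per3 and Nr1d2, 0.73 for Per2 and Nr1d2, 0.71 for Per2 and Dbp, 0.71 for Per2 and Nr1d1 and 0.63 for Nr1d1 and Dbp. Without mouse FAD_ABX_1482 these values were 0.60, 0.09, 0.41, 0.35 and 0.36. Per3 and Nr1d2 therefore kept the highest r of the 45 pairs. Arntl and Clock went from 0.15 to 0.44. Arntl and Dbp were at -0.02 and 0.22, so that the opposite placement of the groups was not repeated among mice of 1 group. The libraries share their preparation and their sequencing, and these values are descriptions without a test.

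**Figure D4:**
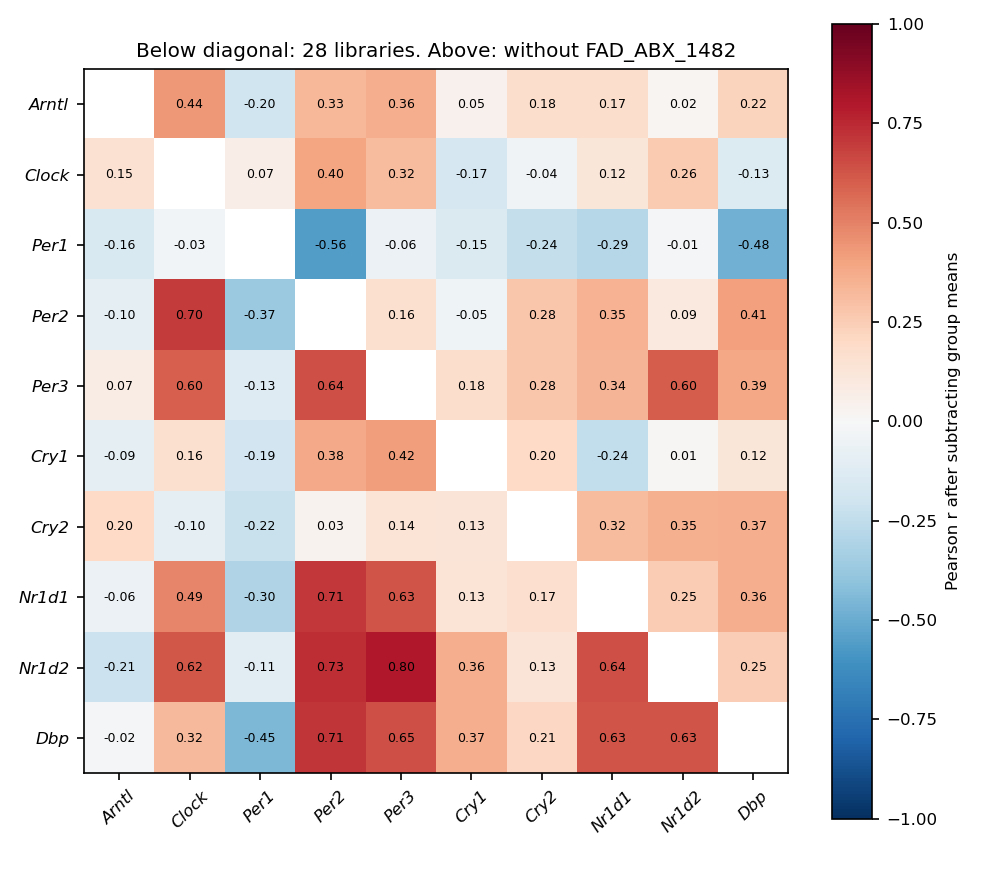
Pearson's r between clock genes after subtraction of group means from log2 CPM, over 28 libraries below the diagonal and over 27 above it. Red is positive and blue negative on a scale from -1 to 1. Per2 and Nr1d2 go from 0.73 to 0.09 when mouse FAD_ABX_1482 is left out.

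Per1 went its own way within groups. Its r with Per2 was -0.37 (-0.56 without mouse FAD_ABX_1482) and with Dbp -0.45 (-0.48). With the log2 of the summed CPM of 6 glucocorticoid targets (Fkbp5, Tsc22d3, Sgk1, Klf9, Ddit4 and Zbtb16) it was 0.66 over 28 and 0.67 over 27 libraries. With that of 10 immediate early genes it was -0.56 and -0.60. Cry2 had the highest r of the 10 with the immediate early genes, 0.58 in both sets. These genes summed to 292 to 350 CPM in 5xFAD mice under SPF, 477 to 637 CPM under GF and 309 to 509 CPM under ABX conditions. In GF against SPF 5xFAD mice 4 of the 9 tested were past the threshold (12.8% of all genes), all higher. The median log2 fold change was 0.80. Their part in the results above was not tested.

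Likeness was measured by the same r over the 8921 better expressed genes (mean log2 CPM of 3 or more), and those most like Arntl over the 28 libraries were Smc3 (r = 0.65), Zfp862-ps (0.63), Cgrrf1 (0.61), Sfxn2 (0.61) and Sugp2 (0.61), none of them a gene of the clock lists. Those most like Dbp were Mta2 (0.80), Tceb3 (0.79), Btrc (0.78), Dhx30 (0.77) and Gcc1 (0.77), of which Btrc, a subunit of the ubiquitin ligase that acts on PER proteins, is in the clock lists. Without mouse FAD_ABX_1482 the latter 5 were between 0.57 and 0.66, and the former between 0.57 and 0.66 too.

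A further 25 genes of the clock were described as lists, of which 22 passed the filter. In 5xFAD against WT mice, 3 of the 22 passed under SPF (4.57% of all genes), 5 under GF (15.6%) and 4 under ABX conditions (14.4%). In GF against ABX mice 4 passed in WT (6.88% of all genes) and 0 in 5xFAD mice (10.6%), in GF against SPF mice 0 (1.62%) and 2 (12.8%), and in ABX against SPF mice 0 and 0 (0% of all genes in each). Their median log2 fold changes lay between -0.03 and 0.11 in the 9 comparisons. The F test over all groups was passed by 11 (33.2% of all genes). The calls of Bhlhe40, of Timeless under SPF and ABX, and of Gsk3b under ABX and between genotype effects were kept without any single mouse and under every alternative that tested them. Each further call described here was lost in at least 1 refit. In 5xFAD against WT mice under SPF conditions, 4 of 6 border-associated macrophage and 5 of 5 neutrophil markers were higher, and 4 of 6 border-associated macrophage markers were higher in GF against ABX WT mice. Their part in the calls of further clock genes in these contrasts, and that of the markers given above for the others, was not tested.

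Among the repressors, Bhlhe40 stood far from all clock genes. It encodes DEC1, which competes with BMAL1 and CLOCK at E-boxes and also acts in activated macrophages. It lay between 0 and 2.11 CPM in the WT mice and between 19.7 and 81.9 CPM in the 5xFAD mice, with no overlap in any condition. Bhlhe40 rose in 5xFAD mice under SPF (log2 fold change 5.71, SE 0.516, edgeR adjusted p = 3.5e-09), GF (5.599, SE 0.523, adjusted p = 3.8e-09) and ABX conditions (4.97, SE 0.4656, adjusted p = 4.65e-09). Its relative Bhlhe41 (DEC2) was abundant in both genotypes, with group means of 91.1 to 135 CPM, and passed only in GF against ABX WT mice, where it fell (-0.57, SE 0.172, adjusted p = 0.0413), a call lost without any 1 of 5 mice (WT_GF_229, WT_GF_230, WT_GF_231, WT_ABX_909 and WT_ABX_932) with GC content offsets (0.102) and in the fit of the 2 groups alone (0.0636).

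Timeless, which encodes a replication fork protein named for a fly clock gene, rose in 5xFAD mice in all 3 conditions, by 1.58 under SPF (SE 0.355, edgeR adjusted p = 0.00494), 1.22 under GF (SE 0.336, adjusted p = 0.0114) and 2.13 under ABX conditions (SE 0.318, adjusted p = 1.71e-05) on the log2 scale. In SPF mice it went from 2.29 ± 0.649 (SD, n = 5) to 6.90 ± 0.840 CPM (SD, n = 3). It also rose in GF against ABX WT mice (1.20, SE 0.338, adjusted p = 0.0305), where the GF values ran from 1.61 to 8.31 CPM, and this call was lost without any of 5 mice (WT_GF_230, WT_GF_231, WT_ABX_909, WT_ABX_910 and WT_ABX_911), with a highest adjusted p of 0.162, with voomWithQualityWeights (0.149), when GC content was offset (0.108) and in the fit of the 2 groups alone (0.0659). The call under GF conditions was lost only in the fit of the 2 groups alone (adjusted p = 0.0572). Ciart, Cipc and Tipin, the other repressors listed, passed no pairwise test.

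Kinases and ubiquitin ligases set the stability of PER and CRY proteins. In GF against SPF 5xFAD mice 2 of the 8 listed passed, 1 higher and 1 lower (12.8% of all genes). In GF against ABX WT mice 2 passed (6.88% of all genes), and in ABX 5xFAD against ABX WT mice 1 (14.4%). Csnk1e, which encodes casein kinase 1 epsilon, rose in GF against SPF 5xFAD mice (log2 fold change 0.36, SE 0.0842, edgeR adjusted p = 0.00625) and in GF against ABX WT mice (0.27, SE 0.0763, adjusted p = 0.0301). Gsk3b, a kinase of REV-ERBα among many substrates, fell in ABX 5xFAD against ABX WT mice (-0.49, SE 0.0957, adjusted p = 0.000546) and in GF against ABX WT mice (-0.46, SE 0.107, adjusted p = 0.0100). In GF against SPF 5xFAD mice the call of Csnk1e was lost without mouse FAD_SPF_1148 (adjusted p = 0.0598) and when GC content was offset (0.20, adjusted p = 0.0658). In GF against ABX WT mice it was lost with library size alone (0.0506), with no filter (0.0946), when GC content was offset (0.04, adjusted p = 0.813) and without any of mice WT_GF_229, WT_GF_230, WT_GF_231, WT_ABX_909, WT_ABX_910 or WT_ABX_911 (adjusted p up to 0.105), and Gsk3b was there at -0.36 with GC content offsets (adjusted p = 0.0654). The genotype effect on Gsk3b differed between GF and ABX mice by 0.68 (SE 0.144, adjusted p = 0.0157), which made it the one gene of both clock lists to pass a test of this kind.

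Among relatives of Dbp and further outputs, Hlf, a D-box binding factor like Dbp, fell in GF 5xFAD against GF WT mice from 15.7 ± 3.82 (SD, n = 4) to 7.63 ± 4.41 CPM (SD, n = 5), with a log2 fold change of -1.05 (SE 0.353, edgeR adjusted p = 0.0403). Its values were 9.35 to 9.73 CPM in SPF 5xFAD and 9.86 to 16.9 CPM in SPF WT mice. Usp2, a deubiquitinase with rhythmic expression in many tissues, fell in 5xFAD mice under SPF (-0.37, SE 0.101, adjusted p = 0.0270) and GF conditions (-0.31, SE 0.0911, adjusted p = 0.0200). Nampt, the rate-limiting enzyme of NAD salvage, rose in GF 5xFAD against GF WT mice (0.45, SE 0.148, adjusted p = 0.0383), and Wee1, a kinase that holds cells before mitosis, rose in ABX 5xFAD against ABX WT mice (2.00, SE 0.690, adjusted p = 0.0496) with 0.0651 to 7.65 CPM in the 5xFAD mice. These calls lay close to the threshold. That of Wee1 was lost in 21 of 28 refits without 1 mouse (adjusted p up to 0.137), that of Hlf in 7 (up to 0.123), that of Nampt in 4 (up to 0.180), and that of Usp2 in 4 under SPF (up to 0.286) and in 5 under GF (up to 0.0798). Of the other alternatives, the fit of the 2 groups alone lost Wee1 (0.126), Hlf (0.0865) and Nampt (0.123), library size alone lost Wee1 (0.0539) and Nampt (0.122), and the table without a filter lost Nampt (0.0795) and Usp2 under SPF (0.0867). Gene length offsets lost Hlf (0.0538) and Usp2 under SPF (0.0509) and GF (0.0843), and voomWithQualityWeights (0.0916) and GC content offsets (0.0586) lost Wee1. The activators outside the core were scarce. Npas2, Arntl2 and Rorb had group means of at most 0.435 CPM, and Rora, which activates Arntl, had group means of 8.75 to 15.1 CPM and passed no pairwise test.

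**Figure D5:**
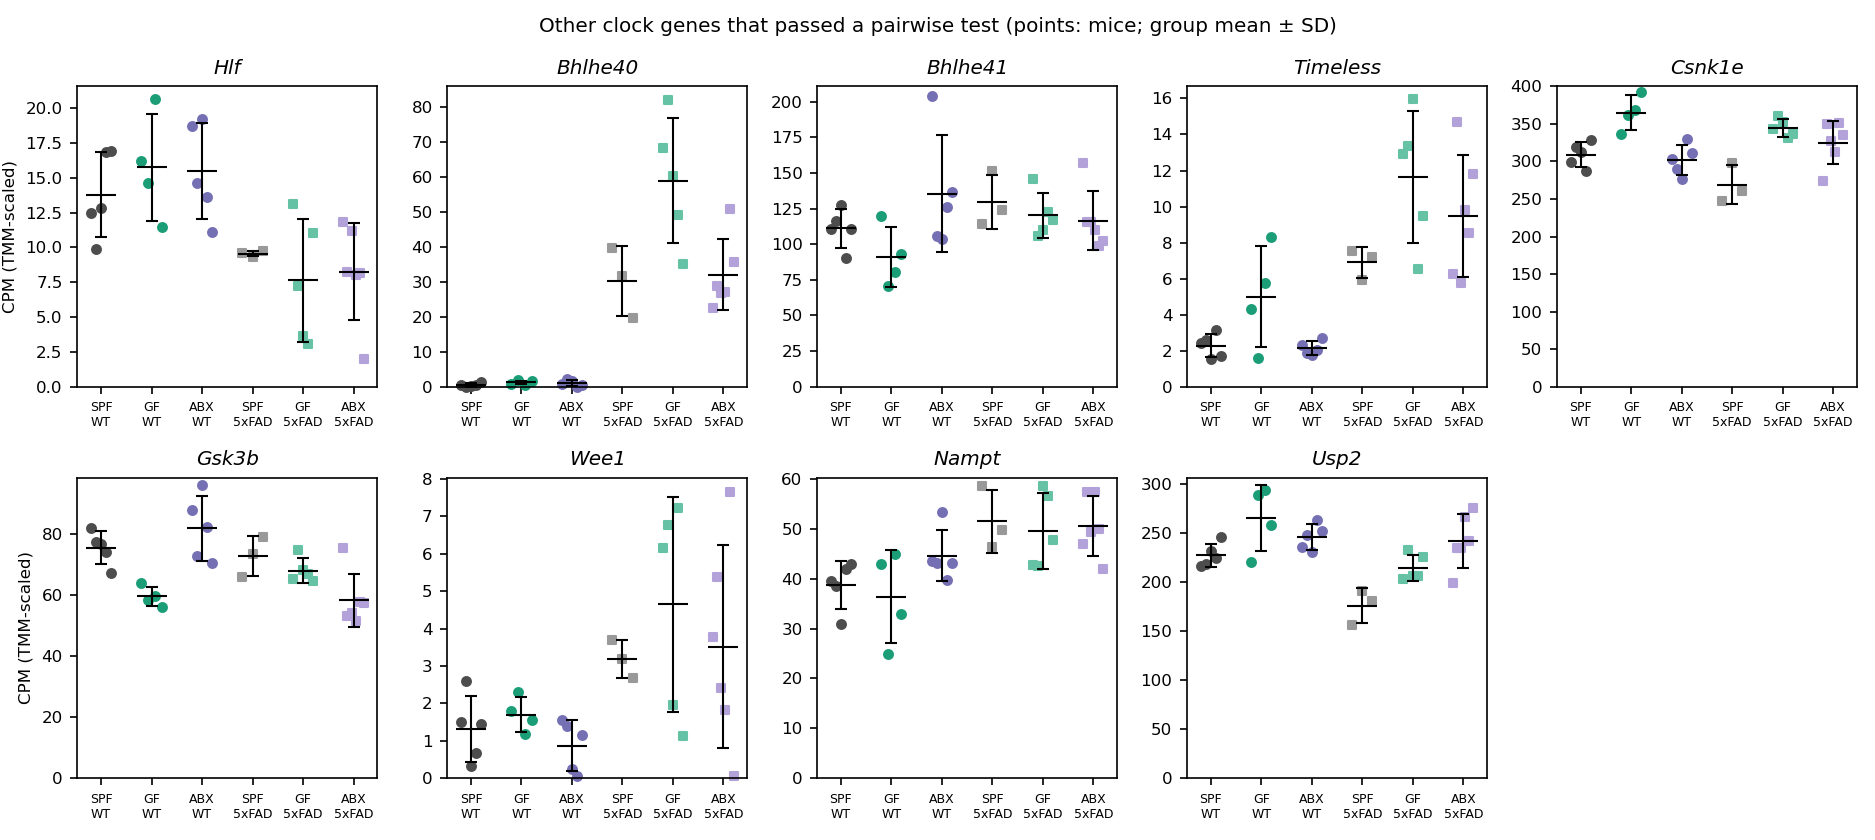
TMM-scaled CPM, on linear axes from 0, of 9 further clock genes that passed at least 1 of the 9 pairwise tests, with single mice as points (circles WT, squares 5xFAD) and the group mean and SD. Bhlhe40 is at 0 to 2.11 CPM in all WT mice and at 19.7 to 81.9 CPM in all 5xFAD mice.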

How the data were processed

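RNA of microglia from 28 mice was amplified with the SMARTer Ultra Low Input kit, a method that does not mark strand, and sequenced. Per the labels and the paper's methods, the authors aligned reads to GRCm38 and counted them per gene; the submitters' processing notes name STAR 2.7.2 and featureCounts 1.6.2 (their build entry names a human assembly, and the file coordinates are mouse). The authors deposited whole-number read counts for each gene and library, not normalized. The 92 spike-in entries, with at most 12 reads in a library, were left out, and 0 per-sample columns were unused. Groups came from the labels.

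In R 4.3.3, edgeR 4.0.16 kept 15298 genes (filterByExpr, minimum count 10, minimum total 15), scaled counts by TMM and fitted 1 term per group. The quasi-likelihood test was applied to 9 pairwise contrasts, 3 differences between genotype effects and an F test, 13 comparisons in all. Adjusted p is the Benjamini-Hochberg value over all 15298 genes, with a threshold of 0.05. CPM of clock genes refers to TMM-scaled library sizes, that of marker lists to library totals. Log2 CPM of single genes in correlations used a prior count of 2, and the ratio of Dbp to Arntl used no prior count. Gene lists entered correlations as the log2 of their summed CPM plus 1. Nothing says whether the mice of a group shared a litter or cage, so p-values measure the spread between these mice.

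The members, lists and comparisons were chosen with earlier results of these data known. By rule, all 10 members were named in every comparison, other clock genes past the threshold in at least 1 pairwise comparison, and the 5 genes of highest r with Arntl and with Dbp. Some genes of the lists are not reported here by name. Each result was refitted with RLE factors, with library size alone, with no filter, with genes of at least 10 counts in every library, with DESeq2 1.42.0, voomWithQualityWeights of limma 3.58.1 (the study's own pipeline), 26 mice (without FAD_ABX_1151 and FAD_ABX_1482), only the groups compared, and leaving out each mouse. Offsets for gene length and GC content (loess, span 0.3, GC known for 96.7% of tested genes) and correlations leaving out FAD_ABX_1482, and all refits of further clock genes, were chosen once the values had been seen. The fit was also run on simulated counts that shared 1 spread and held no outlying library. That run does not cover such features of these data. Figures were drawn with matplotlib 3.10.9.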

Additional observations from a re-analysis of the deposited data

Results flagged for a closer look

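In groups of 4 to 10 mice, each group's highest and lowest value of the 10 clock genes was compared with its nearest neighbour, by Dixon's test at its 95% critical value. Of 50 groups of values examined, 4 held a mouse that stood apart, where chance gives about 5%. Per1 was at 22.2 CPM in mouse WT_SPF_928, the other 4 SPF WT mice being at 6.14 to 7.54 CPM. Nr1d1 was at 2.29 CPM in mouse WT_SPF_936 and at 3.96 to 4.36 CPM in the rest of that group. Nr1d2 was at 69.7 CPM in mouse WT_GF_199, above 39.3 to 43.0 CPM in the other GF WT mice. Cry2 was at 25.5 CPM in mouse FAD_GF_182, above 12.2 to 15.5 CPM in the other GF 5xFAD mice. These belong to 4 different mice, and mouse FAD_ABX_1482 is not among them. A difference between genotype effects was tested for the 10 clock genes and the further clock genes, and Gsk3b passed: its 5xFAD effect differed by 0.68 on the log2 scale between GF and ABX mice (SE 0.144, edgeR adjusted p = 0.0157), being -0.49 in the latter.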

How the results depend on the processing

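No paired analysis was possible because the groups share no replicate numbers in the labels. No clock gene changed direction past the threshold under any alternative run. The number of the 10 members called moved by over 1.5 times as follows. With voomWithQualityWeights it was 0 for 5xFAD against WT under GF, 1 under ABX, 2 for GF against SPF and 3 for GF against ABX in WT, and 3 for ABX against SPF and 1 for GF against ABX in 5xFAD mice. With the 26 mice it was 2 for 5xFAD against WT under GF, 1 for GF against SPF and 3 for GF against ABX in WT mice, and 1 for the difference of genotype effects between GF and ABX (Cry1, -0.90, adjusted p = 0.0464). With DESeq2 and with at least 10 counts in every library it was 1 for GF against SPF and 1 for GF against ABX in WT mice, each time Arntl. With only the groups compared it was 3 for GF against SPF and 2 for GF against ABX in WT mice, and 1 for GF against ABX in 5xFAD mice. With library size alone it was 1 for 5xFAD against WT under ABX and 1 for GF against ABX in WT mice. GC content offsets gave 1 under ABX and 1 for GF against SPF 5xFAD mice, and length offsets 1 for the latter. Causes were not tested, except that the offsets act through length and GC content by construction. Leaving out each mouse gave 0 to 2 calls for 5xFAD against WT under GF (0 without WT_GF_199), 0 to 3 under ABX, 0 to 1 for GF against SPF and 0 to 3 for GF against ABX in WT, 1 to 3 for GF against SPF and 1 to 3 for GF against ABX in 5xFAD mice, 0 to 1 for the difference between GF and ABX, 5 to 6 over all groups and 0 to 0 otherwise.

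Counts over all genes moved by over 1.5 times too. With voomWithQualityWeights they were 2154 (against 699) for 5xFAD against WT under SPF, 1631 (248) for GF against SPF, 2025 (1053) for GF against ABX in WT, 3872 (1962) for GF against SPF and 134 (0) for ABX against SPF in 5xFAD mice, 116 and 14 (0 each) for the first pair of differences and 7868 (5079) over all groups. With DESeq2 they were 721, 1618, 8, 25, 1 and 576 (269) for GF against SPF and GF against ABX in WT, ABX against SPF in 5xFAD mice and the 3 differences, and 2 for ABX against SPF in WT mice. With only the groups compared they were 1340 under SPF, 1321 (2207) under ABX, 1286 for GF against SPF in WT and 251 (1621) for GF against ABX in 5xFAD mice. The 26 mice gave 659 for GF against SPF in WT, 36 for ABX against SPF in 5xFAD mice and 3 and 1 for the first pair of differences, no filter gave 2 for the first of these, and GC content offsets gave 129 for GF against SPF and 254 for GF against ABX in WT mice. Leaving out a mouse gave counts as low as 437 for 5xFAD against WT under SPF (without FAD_SPF_1144), 54, 449 and 85 (without WT_GF_229) for GF against SPF and GF against ABX in WT mice and the difference between GF and ABX, 547 (without FAD_SPF_1148) for GF against SPF and 980 (without FAD_ABX_1151) for GF against ABX in 5xFAD mice. The highest were 447 (without FAD_ABX_1151) for GF against SPF in WT, 59 (without FAD_ABX_1151) for ABX against SPF and 2497 (without FAD_ABX_1482) for GF against ABX in 5xFAD mice, and 8 and 491 (without FAD_GF_201) for the differences of GF from SPF and from ABX.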
